A study of Drosophila melanogaster with 30 samples.

Results

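Wing discs of Drosophila melanogaster are larval sheets of cells that form the adult wing, its hinge and the adjoining body wall. The 10 genes described here encode transcription factors that divide this sheet into regions: vestigial (vg), scalloped (sd), apterous (ap), nubbin (nub), POU domain protein 2 (pdm2), rotund (rn), defective proventriculus (dve), Zn finger homeodomain 2 (zfh2), homothorax (hth) and Distal-less (Dll). They were taken by name as wing selector and pouch genes, 10 of the 17868 genes in the RNA count table, together with each chromatin loop whose label names one of them. Such labels were found on 7 of 209 wing disc loops and 3 of 186 embryo loops.

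Vg has no DNA-binding domain of its own and acts with Sd, a TEAD-family protein, in a complex that gives cells wing identity. Ap makes cells dorsal, and the boundary between dorsal and ventral cells organises growth of the pouch, the central part of the disc that becomes the wing blade. Nub, rn, dve and zfh2 are expressed in the pouch and the surrounding hinge, while hth is restricted to the hinge and the proximal disc.

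The series asked how GAGA-associated factor (GAF), encoded by Trithorax-like (Trl), affects chromatin loops and transcription. GAF is a zinc-finger protein that binds GAGAG motifs, and its POZ domain mediates contacts between GAF molecules. All wing disc groups carried Halo-tagged GAF: Halo-Trl as the reference, delta-POZ without the POZ domain and delta-Q without the Q domain, from wandering larvae of the last stage, with 30 pooled discs for each of 3 RNA libraries per genotype and 90 pooled discs for each of 2 contact libraries per genotype. The embryo contact maps compared GAF(deGradFP), in which GFP-tagged GAF was degraded, with sfGFP-GAF(N) controls that carry the tagged protein without that degradation, 4 libraries each at 2 to 2.5 h after fertilisation, a stage before imaginal discs exist. The labels name neither the driver of the degradation nor the number of lines per genotype, and 7 CUT&Tag samples were not analysed here.

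RNA libraries held 57673928 to 85575887 reads in genes, disc contact libraries 23944 to 31995 contacts over the loops and embryo libraries 1715 to 7347 contacts. The 5 epithelial marker genes of the disc summed to between 2316 and 3055 CPM (reads of a gene scaled to the normalised size of its library) in each of the 9 RNA libraries. Fat body markers ranged from 8.0 to 4466 CPM and were highest in delta-Q 3 (4466) and Halo-Trl 1 (2822). Neuron markers reached 307 CPM in delta-POZ 2 and stood between 8.95 and 79.8 in the other libraries. Trl itself, the targeted gene, measured 47.6 ± 5.14 CPM with full-length GAF, 69.0 ± 8.75 without the POZ domain and 60.3 ± 3.68 without the Q domain (SD, n = 3). Tsen34, which overlaps Trl, had 16.2% as many reads as Trl. The rise of Trl in delta-POZ had an edgeR adjusted p of 0.0234, which went up to 0.104 when Halo-Trl 3 was left out. Counts per gene do not show which domain is deleted. In whole discs, fewer cells of a type and less RNA per cell cannot be told apart.

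The first question is whether RNA of the wing selector and pouch genes differs when GAF lacks its POZ domain. None of the 10 genes passed an adjusted p of 0.05 in edgeR's quasi-likelihood test for delta-POZ against Halo-Trl, where 10.1% of all 10359 genes tested did. The median log2 fold change of the 10 genes was -0.10, beside -0.0078 for all genes tested, and 8 of the 10 values lay below 0, beside 50.5% of all genes. Without delta-POZ 2 the count below 0 was 5 of the 10, and with each other library left out it was 6 to 9. The lowest values were those of sd, whose mean CPM differed by -28.9% from Halo-Trl, and pdm2, by -22.8%. All 10 genes passed the filter on low counts.

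**Figure D1:**
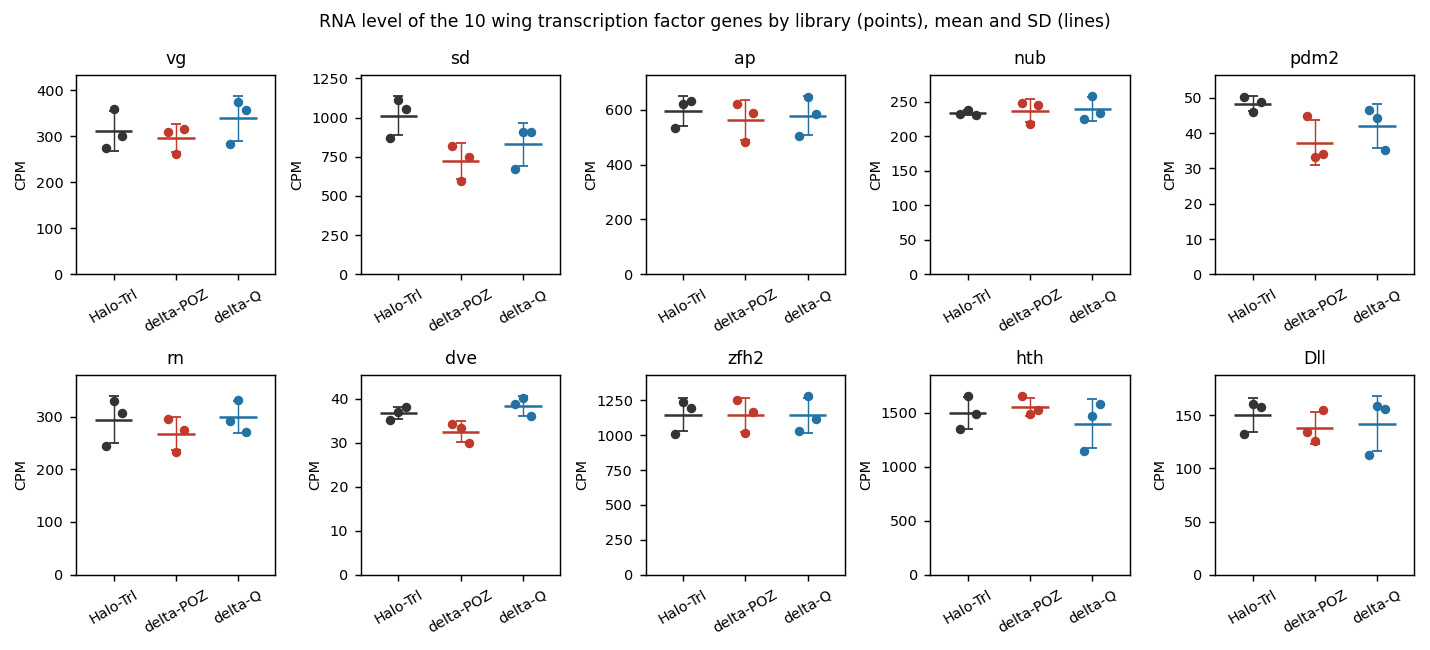
RNA level of each gene in CPM (y axis, starting at 0) in the 3 libraries of Halo-Trl, delta-POZ and delta-Q (points), with the mean and SD of each genotype (lines). For sd the 3 delta-POZ libraries lie between 593 and 817 CPM, below the Halo-Trl libraries at 872 to 1112, while for nub all 9 libraries lie between 218 and 258.

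Sd is the DNA-binding partner of Vg and also of Yorkie, the effector of the Hippo growth pathway. Its RNA measured 817, 593 and 750.0 CPM in delta-POZ libraries 1 to 3, against 872, 1112 and 1054 CPM in Halo-Trl libraries 1 to 3. Every delta-POZ library was below every Halo-Trl library. The log2 fold change was -0.49 (SE 0.17, 95% interval -0.86 to -0.12), with an unadjusted p of 0.0142 and an adjusted p of 0.0931 in edgeR. DESeq2 gave a log2 fold change of -0.47 and an adjusted p of 0.0354, past the threshold, in a fit that called 16% of genes. The authors' deposited table of this comparison, which called 15.9% of genes, gives sd the same log2 fold change of -0.47 with an adjusted p of 0.0355. Of 16 fits, DESeq2's was the one that called sd, and without delta-POZ 2 its log2 fold change was -0.36 with an edgeR adjusted p of 0.29.

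Vg RNA measured 310.0, 262 and 316 CPM in delta-POZ and 275, 360.1 and 301 CPM in Halo-Trl. The ranges overlapped, and the log2 fold change was -0.074 (95% interval -0.40 to 0.25; edgeR adjusted p = 0.797). Set against each other within a library, there were 3.17, 3.09 and 3.50 sd reads per vg read in Halo-Trl libraries 1 to 3. In delta-POZ the ratio was 2.64, 2.26 and 2.37, and delta-Q libraries gave 2.37, 2.42 and 2.54. All 6 libraries of the deletion lines lay below the 3 Halo-Trl libraries on this ratio, which was chosen after its values were seen and carries no test.

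Nub and pdm2 are neighbouring genes for closely related POU-homeodomain proteins, of which nub is the pouch marker in common use. Pdm2 RNA measured 44.8, 33.3 and 34.0 CPM in delta-POZ and 50.2, 46.0 and 49.0 CPM in Halo-Trl. The groups did not overlap, with a log2 fold change of -0.37 (SE 0.15, 95% interval -0.70 to -0.044), an unadjusted p of 0.0302 and an edgeR adjusted p of 0.143. Without the 3 libraries highest in fat body or neuron markers (delta-POZ 2, delta-Q 3 and Halo-Trl 1) it was -0.26 with an adjusted p of 0.445. For nub the levels were 248, 218 and 245 CPM in delta-POZ and 233, 239 and 231 CPM in Halo-Trl. Its log2 fold change was 0.017, and the 95% interval of -0.20 to 0.23 bounds any difference to between 0.87 and 1.17 of the Halo-Trl level. Nub reads per pdm2 read numbered 5.54, 6.54 and 7.21 in the delta-POZ libraries, 4.81, 5.83 and 6.67 in delta-Q and 4.63, 5.19 and 4.72 in Halo-Trl, a ratio also chosen after its values were seen.

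Dve, a homeodomain protein of the pouch, was the third gene whose groups did not overlap. It measured 34.3, 33.4 and 30.0 CPM in delta-POZ and 35.2, 37.1 and 38.1 CPM in Halo-Trl, a log2 fold change of -0.18 with an edgeR adjusted p of 0.324. Non-overlap of this kind held for 3 of the 10 genes (sd, pdm2 and dve) and for 33% of all genes tested, and an unadjusted p under 0.05 held for 2 of the 10 (sd and pdm2) and for 26% of all. Both shares are near those of all genes.

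Ap is the LIM-homeodomain selector of dorsal cells. Its RNA measured 620.5, 483 and 587 CPM in delta-POZ and 533, 620.1 and 632 CPM in Halo-Trl, a log2 fold change of -0.079 (95% interval -0.38 to 0.22). The dorsal selector had overlapping groups and no call. Among the hinge and pouch genes rn, a zinc-finger factor, had a log2 fold change of -0.14 (95% interval -0.45 to 0.18). Zfh2, a large protein with zinc fingers and homeodomains, measured 1144 ± 122 CPM in delta-POZ and 1148 ± 121 CPM in Halo-Trl (SD, n = 3), a log2 fold change of -0.0050 whose sign changed between fits.

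Hth, the homeodomain protein that carries its partner Extradenticle into the nucleus, measured 1653, 1494 and 1527 CPM in delta-POZ and 1353, 1655 and 1492 CPM in Halo-Trl. Its groups overlapped, with a log2 fold change of 0.055 (95% interval -0.25 to 0.36). Dll, a homeodomain gene of distal appendages that is expressed near the wing margin, measured 134, 125 and 155 CPM in delta-POZ and 132, 161 and 157 CPM in Halo-Trl. Its log2 fold change was -0.12 (95% interval -0.45 to 0.21), again with overlapping groups. The 95% intervals of ap, hth and Dll span 0.77 to 1.17, 0.84 to 1.28 and 0.73 to 1.16 of the Halo-Trl level. With 3 libraries per genotype, differences inside these bounds are not excluded.

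Loss of the Q domain was compared with Halo-Trl next. None of the 10 genes passed the edgeR test, where 0.656% of all genes did, and no gene of the 10 had groups that did not overlap, beside 13.1% of all genes. None had an unadjusted p under 0.05 (7.82% of all genes), and DESeq2 called none of the 10. The median log2 fold change was -0.024, beside 0.020 for all genes.

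In delta-Q, sd RNA measured 671, 907 and 909 CPM. Delta-Q libraries 2 and 3 stood between the lowest and the highest Halo-Trl library and delta-Q 1 below all of them. The log2 fold change was -0.29 (95% interval -0.66 to 0.08; edgeR adjusted p = 0.777), and without delta-Q 1 it was -0.16. Without the 3 libraries highest in fat body or neuron markers it was -0.49, with an adjusted p of 0.293. Pdm2 measured 46.6, 44.4 and 35.1 CPM, a log2 fold change of -0.20. Vg measured 284, 375 and 358 CPM, a log2 fold change of 0.12, and the ranges overlapped for both genes. The remaining log2 fold changes ran from -0.10 (hth) to 0.061 (dve).

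Both deletion lines were then compared directly, which does not use the Halo-Trl libraries in the difference. None of the 10 genes passed the edgeR test, beside 4.6% of all genes, and 1 of the 10 had groups that did not overlap, beside 24.2% of all genes. That gene was dve, which measured 38.9, 40.3 and 36.0 CPM in delta-Q and 34.3, 33.4 and 30.0 CPM in delta-POZ. Its log2 fold change of 0.24 (SE 0.10, 95% interval 0.0063 to 0.47) had an unadjusted p of 0.0451, held by 20.3% of all genes, and an edgeR adjusted p of 0.233. The next largest were sd at 0.20 and vg at 0.19, with adjusted p of 0.54 and 0.494. Without the 3 libraries named above the sd value was -0.028.

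**Figure D2:**
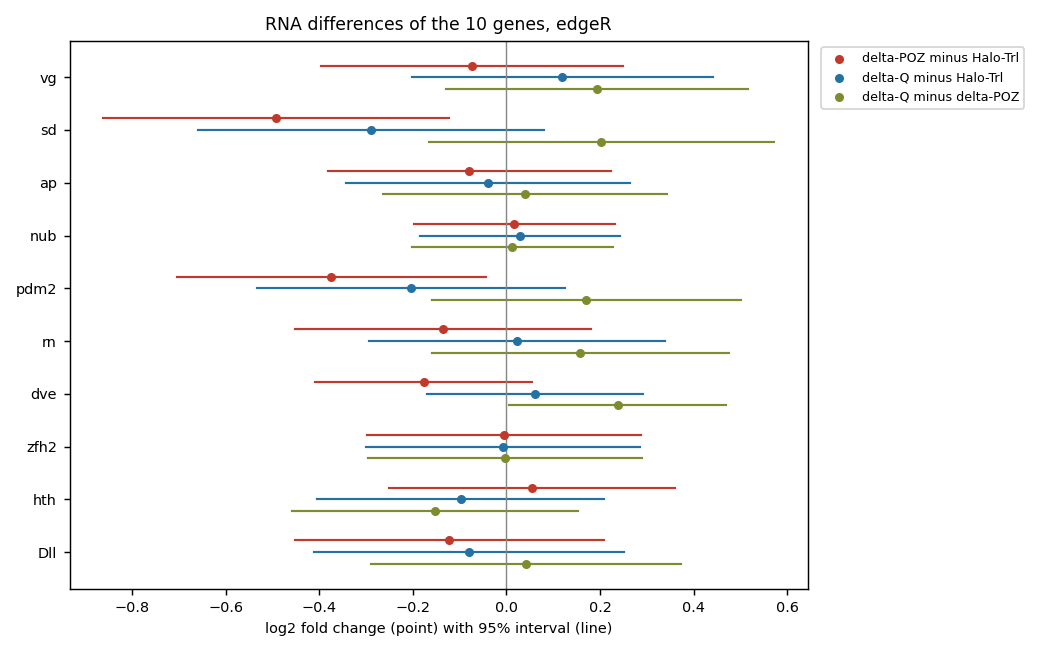
Log2 fold change of each gene (points) with its 95% interval (lines) from edgeR for delta-POZ against Halo-Trl, delta-Q against Halo-Trl and delta-Q against delta-POZ. The intervals of sd and pdm2 in delta-POZ against Halo-Trl and of dve in delta-Q against delta-POZ lie on one side of 0 before adjustment, and none of the 30 values passed the adjusted threshold.

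The spread of the 10 genes among the 9 libraries differed from gene to gene. The SD of log2 CPM over all 9 libraries had a median of 0.170 for the 10 genes, beside 0.222 for the 5138 genes above 10 CPM. Sd and pdm2, at 0.293 and 0.235, were above that median for genes over 10 CPM, and the other 8 genes were below it. Nub had the smallest, 0.0753, with 0.895% of the genes above 10 CPM lower than it. Its highest library was 1.19 times its lowest, whereas for sd that ratio was 1.88. Reads of overlapping genes, which cannot be told apart where the counting ignores strand, were few at the loci of the 10 genes: of the overlapping genes in the table, Nepl7 had the most beside its host, 3.21% as many reads as pdm2. Tdg, which overlaps zfh2, is not in the table under that name.

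The libraries also shifted several of the genes together. Delta-POZ 2 was the lowest of all 9 libraries for 6 of the 10 genes (vg, sd, ap, nub, pdm2 and rn) and the lowest of its genotype for 9 of the 10. Halo-Trl 1 was the lowest of its genotype for 8 and delta-Q 1 for 7 of the 10 genes. Delta-POZ 2 was the library with the highest neuron marker sum, 307 CPM against 16.8 and 17.7 in the other delta-POZ libraries. Its epithelial marker sum, which includes vg and nub themselves, was 2375 CPM, below the 3022 and 2805 of those libraries. Halo-Trl 1 had a fat body marker sum of 2822 CPM against 8.0 and 23.7 in the other Halo-Trl libraries. Delta-Q 1 had fat body and neuron marker sums of 381 and 8.95 CPM, the lowest of the delta-Q libraries. Delta-Q 3, with the highest fat body sum of all, 4466 CPM, was the lowest of its genotype for 3 of the 10 genes. The counts of lowest libraries were not made over all genes. The part of these markers in the values of the 10 genes was not tested.

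Markers of other cell types also differed between genotypes, and 10.1% of all genes were called in delta-POZ against Halo-Trl. Adult muscle precursor markers summed to between 317 and 364 CPM in delta-POZ and between 247 and 283 CPM in Halo-Trl, and 1 of 6 (zfh1) was called higher in delta-POZ. Zfh1 alone measured 88.9, 128.5 and 149.7 CPM in delta-POZ and 74.6, 72.2 and 71.9 CPM in Halo-Trl. The other muscle precursor markers had overlapping groups, with log2 fold changes from -0.20 (htl) to 0.29 (Him), none called. Haemocyte markers, with 2 of 5 (NimC1 and He) called higher, summed to between 145 and 579.7 CPM in delta-POZ and between 112 and 279 CPM in Halo-Trl. For trachea the sums were 196 to 215 CPM and 146 to 183 CPM, but Gasp alone was called higher, at a log2 fold change of 0.60, while btl and trh had values of -0.22 and -0.12. Neuron markers included 1 called higher in delta-POZ, Syt1 (edgeR adjusted p = 0.0452). It measured 11.5, 112 and 14.0 CPM in delta-POZ and 7.63, 5.65 and 3.95 CPM in Halo-Trl. Elav, at a log2 fold change of -0.40, measured 4.88, 137 and 3.36 CPM in delta-POZ and 51.1, 74.0 and 66.9 in Halo-Trl. NSyb, at 5.68, was not called and stood at 58.1 CPM in delta-POZ 2 against 0.435 and 0.356 in delta-POZ 1 and 3. The neuron marker sum was 8.95 to 21.5 CPM in delta-Q, below the 59.0 to 79.8 CPM of Halo-Trl. Of its genes elav was lower, at a log2 fold change of -3.07 that was not called (edgeR adjusted p = 0.48). The values of nSyb and Syt1 in that comparison lay above 0, at 0.68 and 0.35. Fat body markers summed to between 381 and 4466 CPM in delta-Q and between 14.4 and 41.9 CPM in delta-POZ, with all 5 higher in each delta-Q library than in each delta-POZ library and none called. In delta-Q against Halo-Trl no marker of another cell type was called, and in delta-Q against delta-POZ zfh1 and Gasp were called lower. Of the markers of other discs and segments Abd-B had no read in any library. None of the 5 epithelial markers, which include vg and nub, was called, and the part of the other markers in the values of the 10 genes in either deletion line was not tested.

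Over the 9 libraries ap and zfh2 had the most similar pattern among the 10 genes, with a Pearson r of 0.94 between their log2 CPM values, and dve and hth the least similar, at -0.33. For the 4 genes of the set with the most reads, the 2 most similar genes among 7887 were looked up. They were ovo and CG9384 for hth (r of 0.978 and 0.977), br and fz2 for zfh2 (0.962 and 0.946), CG10005 and RpS15 for sd (0.990 and 0.988) and roq and CrebA for ap (both 0.963). These correlations are descriptions of 9 libraries that share the normalisation. RpS15, which encodes a ribosomal protein, measured 1619, 1208 and 1559 CPM in delta-POZ and 1786, 2052 and 2089 CPM in Halo-Trl, and delta-POZ 2 was the lowest of the 9 libraries for both RpS15 and sd.

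Genes that act with the 10 factors, and other genes of the pouch, dorsal-ventral boundary, hinge, distal appendages and notum, were counted as lists. Of 16 Vg and Sd cofactors and pouch genes, 1 was called higher and none lower in delta-POZ against Halo-Trl, with a median log2 fold change of 0.11. The share called among all genes was 10.1%. The called gene was E2f1, a cell cycle transcription factor, at 423, 414 and 391 CPM in delta-POZ against 276, 312 and 276 CPM in Halo-Trl. Its log2 fold change of 0.51 had an edgeR adjusted p of 0.0361, which passed in 7 of 16 fits and reached 0.139 without Halo-Trl 3. None of the 9 Apterous complex and dorsal-ventral boundary genes was called, and the smallest p was that of Dr, a homeobox gene, at a log2 fold change of 0.34 (edgeR adjusted p = 0.109, DESeq2 adjusted p = 0.0425). None of 10 distal appendage genes was called either, with the smallest p for Sp1 (edgeR adjusted p = 0.106, DESeq2 adjusted p = 0.0184). Sp1 measured 8.90, 28.0 and 6.53 CPM in delta-POZ libraries 1 to 3. Without delta-POZ 2 its log2 fold change of 1.61 became 0.70, with an edgeR adjusted p of 0.403.

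Among 9 hinge and Hth partner genes, 1 rose and 2 fell in delta-POZ against Halo-Trl, beside 10.1% of all genes called in either direction. The lists were chosen with earlier results of these data known, so this count cannot show an excess over all genes. Tiptop (tio), a zinc-finger gene related to teashirt, measured 11.8, 13.5 and 13.0 CPM in delta-POZ and 83.7, 99.9 and 96.0 CPM in Halo-Trl, a log2 fold change of -2.87 with an edgeR adjusted p of 1.22e-06. Elbow B (elB) fell by 1.91 on the log2 scale and no ocelli (noc), its zinc-finger paralog, rose by 1.06 (edgeR adjusted p of 1.84e-04 and 0.00106). All 3 calls held in each of 16 fits. In delta-Q against Halo-Trl, tio was the one gene called in these lists (0.656% of all genes were called), at a log2 fold change of -1.63 (edgeR adjusted p = 9.72e-05). In the direct comparison of the deletion lines, tio and elB were higher in delta-Q by 1.23 and 1.55 and noc lower, at -0.87. Of 9 notum genes, the Iroquois gene araucan (ara) was lower in delta-POZ than in Halo-Trl, at a log2 fold change of -0.39 (edgeR adjusted p = 0.0319, called in 8 of 16 fits). Delta-Q discs held more ara RNA than delta-POZ discs, by 0.51 (edgeR adjusted p = 0.0189, called in 11 of 16 fits).

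Chromatin loops were examined next, to ask whether contacts at the selector genes depend on the domains of GAF. A loop here is a pair of anchors from the authors' list, 5000 bp each in discs and 1600 bp in embryos, and a contact is a count between them. The positions are those of the authors' lists, written from base 1, and the genome build is not given in the sources used here. Loop labels named nub, pdm2, dve, ap, vg and hth in discs and nub, pdm2, dve and rn in embryos. Sd, zfh2 and Dll were named by no loop in either list.

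The nub and pdm2 labels fall on 3 disc loops that join the same 3 places pairwise. The loop labelled nub links 2L:12584901-12589900 with 2L:12615701-12620700. The loop labelled nub-p1/pdm2 links 2L:12585101-12590100, which shares 4800 bp with the first of these, to 2L:12653901-12658900. The loop labelled nub-p2/pdm2 links 2L:12615501-12620500, which shares 4800 bp with the second, to the same pdm2 anchor. The anchor centres lie 30.8, 68.8 and 38.4 kb apart. Because they share anchors, the 3 loops are not independent of one another.

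None of the 7 loops was called in edgeR in delta-POZ against Halo-Trl, where 4.31% of the 209 loops were, all 9 of them lower in delta-POZ. Contacts were normalised to the library, so each value is relative to the other loops in the list. The nub-p1/pdm2 loop, from the more distant nub anchor to pdm2, held 26.4 and 37.4 normalised contacts in delta-POZ 1 and 2 and 41.0 and 45.5 in Halo-Trl 1 and 2. Both delta-POZ libraries lay below both Halo-Trl libraries, with a log2 fold change of -0.42 (SE 0.23, 95% interval -0.88 to 0.039) and an edgeR adjusted p of 0.544. The authors' deposited log2 fold change of -0.43 has a larger SE, 0.385. The edgeR value rested on single libraries, at -0.21 without delta-POZ 1 and -0.71 without delta-POZ 2. For the nub-p2/pdm2 loop the contacts were 42.3 and 32.2 in delta-POZ and 42.0 and 47.2 in Halo-Trl. These groups overlapped, and the log2 fold change of -0.28 became -0.47 without delta-POZ 1 and -0.078 without delta-POZ 2.

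The nub loop, between both nub anchors, held 96.3 and 127 contacts in delta-POZ and 90.6 and 108 in Halo-Trl. Its groups overlapped, at a log2 fold change of 0.17 (95% interval -0.19 to 0.53). Raw contacts of both nub to pdm2 loops together came to 71.4% and 54.8% of those of the nub loop in delta-POZ 1 and 2. The same share was 91.6% and 85.5% in Halo-Trl 1 and 2 and 79.8% and 100% in delta-Q. Both delta-POZ libraries were the lowest on this share, which was chosen after the loop values were seen and was not tested.

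The vg loop joins 2R:12882701-12887700 and 2R:12899501-12904500, 16.8 kb apart. It held 92.0 and 91.4 normalised contacts in delta-POZ, 104 and 79.7 in delta-Q and 77.2 and 72.6 in Halo-Trl. Both deletion lines lay above Halo-Trl in each library, opposite in direction to the nub to pdm2 loops in delta-POZ. The log2 fold changes were 0.29 for delta-POZ (SE 0.20, edgeR adjusted p = 0.62) and 0.30 for delta-Q (SE 0.20, adjusted p = 0.988), with the same Halo-Trl libraries in both. The delta-Q value was 0.075 without delta-Q 1 and 0.47 without delta-Q 2. Vg RNA had log2 fold changes of -0.074 and 0.12 in these comparisons, neither of them called.

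**Figure D3:**
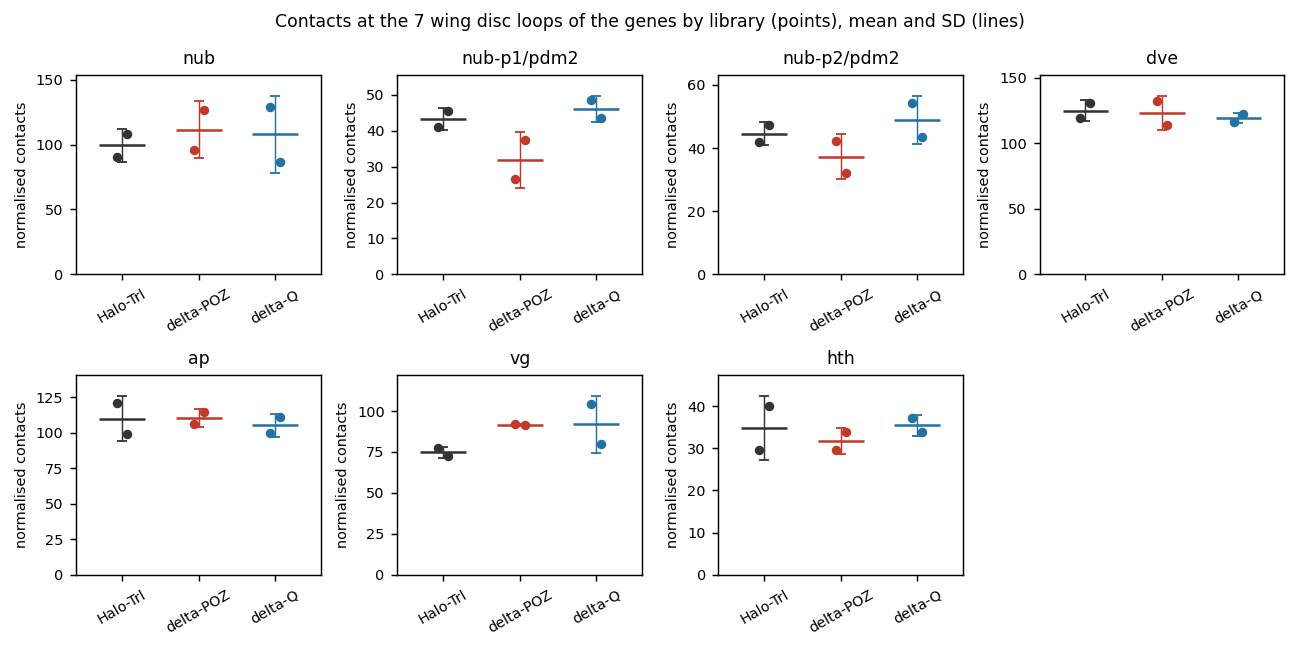
Normalised contacts (y axis, starting at 0) at the 7 wing disc loops in the 2 libraries of Halo-Trl, delta-POZ and delta-Q (points), with the mean and SD of each genotype (lines). The delta-POZ libraries at the nub-p1/pdm2 loop (26.4 and 37.4) lie below all others, and the Halo-Trl libraries at the vg loop (77.2 and 72.6) lie below all others.

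The dve loop joins 2R:22240901-22245900 and 2R:22268101-22273100, 27.2 kb apart, and held 132 and 114 contacts in delta-POZ, 116 and 122 in delta-Q and 119 and 130.2 in Halo-Trl. The ap loop joins 2R:5727501-5732500 and 2R:5744301-5749300, 16.8 kb apart, and held 106 and 115, then 99.5 and 111, then 121 and 98.8 contacts in the same order. At both loops the genotypes overlapped in delta-POZ against Halo-Trl, with log2 fold changes of -0.026 (95% interval -0.37 to 0.32) and 0.012 (95% interval -0.35 to 0.37). The hth loop, which spans 80.8 kb between 3R:10533101-10538100 and 3R:10613901-10618900, held 29.6 and 33.9 contacts in delta-POZ, 37.3 and 33.8 in delta-Q and 29.6 and 40.2 in Halo-Trl, a log2 fold change of -0.13 (95% interval -0.59 to 0.32) in delta-POZ. Groups that did not overlap were found for 2 of the 7 loops (nub-p1/pdm2 and vg) in delta-POZ against Halo-Trl and for 41.6% of all loops. An unadjusted p under 0.05 was found for none of the 7, beside 10.5% of all loops.

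In delta-Q against Halo-Trl none of the 7 loops was called, and neither was any other of the 209 loops (0%) in edgeR or in DESeq2. Groups that did not overlap were found for 1 of the 7 loops (vg), beside 25.8% of all loops, and an unadjusted p under 0.05 for none, beside 1.91%. At the nub to pdm2 loops the contacts in delta-Q were 48.6 and 43.5 (nub-p1) and 54.3 and 43.5 (nub-p2). Their log2 fold changes against Halo-Trl were 0.09 and 0.13, with 95% intervals of -0.35 to 0.54 and -0.31 to 0.58.

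In the direct comparison, both nub to pdm2 loops held more contacts in each delta-Q library than in each delta-POZ library. The log2 fold change was 0.51 at nub-p1/pdm2 (SE 0.24, unadjusted p = 0.0352, edgeR adjusted p = 0.33). It was 0.41 at nub-p2/pdm2 (SE 0.24, adjusted p = 0.549). None of the 7 loops was called, beside 4.31% of all loops. Groups that did not overlap were found for 2 of 7, beside 34% of all loops, and an unadjusted p under 0.05 for 1 of 7, beside 12.4%. With delta-POZ 1 left out, the nub-p1/pdm2 value was 0.30, and with delta-POZ 2 left out it was 0.80. The nub-p2/pdm2 value was 0.60 without delta-POZ 1 and 0.21 without delta-POZ 2.

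The loops of these genes were compared with the whole list by their contacts at similar distance. Ordered from most to fewest contacts over 6 libraries, the dve, ap, nub and vg loops ranked 84, 99, 102 and 127 of 209. The nub-p2/pdm2, nub-p1/pdm2 and hth loops ranked 197, 203 and 207. For each of these last 3 loops, 19 of the 20 loops nearest to it in anchor distance held more contacts, against 16 for vg, 11 for ap, 8 for dve and 7 for nub. The hth loop averaged 34.1 normalised contacts where its 20 neighbours in distance had a median of 92.7. Low contacts widen the intervals at these 3 loops, which had 25 to 54 raw contacts per library.

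**Figure D4:**
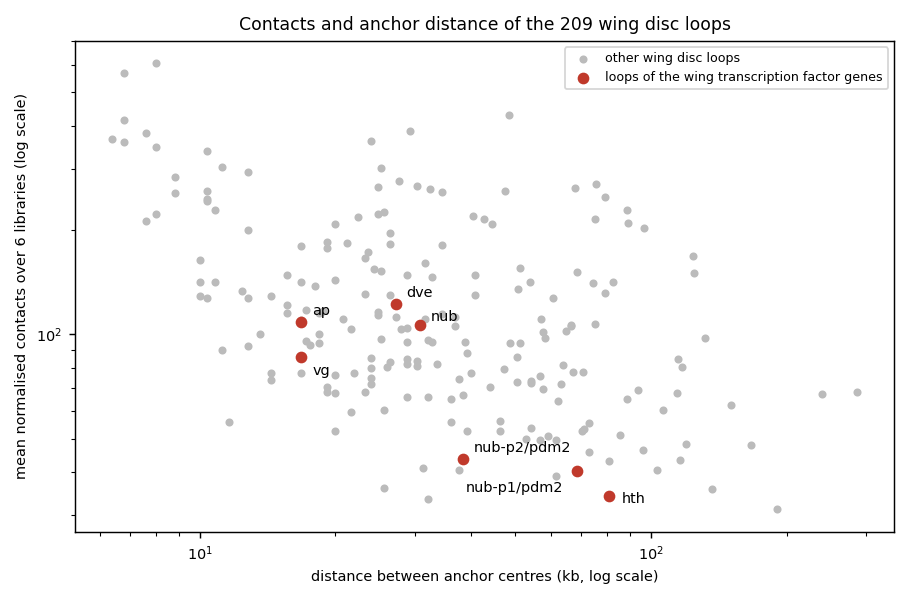
Mean normalised contacts over 6 libraries (y axis, log scale) against the distance between anchor centres (x axis, kb, log scale) for the 209 wing disc loops, with the 7 loops of the wing transcription factor genes in red and the others in grey. The hth, nub-p1/pdm2 and nub-p2/pdm2 loops, at 34.1, 40.4 and 43.6 contacts, lie at the lower edge of the points, and the dve, ap, nub and vg loops lie among the others.

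The embryo maps asked the same of loops formed before discs exist, with GAF protein removed. None of the 3 embryo loops was called in GAF(deGradFP) against sfGFP-GAF(N) control, where 2.69% of the 186 loops were. None had groups that did not overlap (10.8% of all loops) or an unadjusted p under 0.05 (15.6% of all loops). DESeq2 called none of the 3. Controls 2 and 3 did not differ beyond the sampling noise (a ratio of chi-square to its degrees of freedom of 1.02, with p = 0.403), and the remaining control pairs did differ, with p of 0.0442 or less. Control 3, at 1715 contacts, was the shallowest library, and values are given with both counted separately and as 1 sample.

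The nub/pdm2 loop of embryos links 2L:12617201-12618800 to 2L:12678001-12679600, 60.8 kb apart. Its nub anchor lies inside the second nub anchor of the discs, while its pdm2 anchor begins 19.1 kb beyond the pdm2 anchor of the discs. It held 10.3, 3.86, 10.5 and 11.6 normalised contacts in GAF(deGradFP) 1 to 4 and 19.3, 5.91, 19.5 and 9.79 in controls 1 to 4. Controls 1 and 3 stood above all depleted libraries, and controls 2 and 4 did not. The value of control 3, the shallowest library, came from 6 raw contacts. The means were 9.06 ± 3.51 and 13.6 ± 6.86 (SD, n = 4), with a log2 fold change of -0.44 (95% interval -1.31 to 0.42; edgeR adjusted p = 0.656). With the normalised contacts of controls 2 and 3 averaged into 1 value, the control mean was 13.9 ± 4.90 (SD, n = 3). With their raw contacts summed into 1 sample, the log2 fold change was -0.42 and the edgeR adjusted p 0.731. Left out singly, control 1 moved the log2 fold change to -0.11 and control 2 moved it to -0.75, both uncalled. The raw counts behind these values were 5 to 16 contacts per library, and levels between 0.404 and 1.34 of the control lay within the 95% interval.

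The dve loop of embryos is labelled with dveRA and dveRB, and links 2R:22243001-22244600 to 2R:22269801-22271400, both inside the anchors of the disc dve loop. It held 23.3, 12.4, 16.2 and 25.3 contacts in GAF(deGradFP) and 29.0, 21.1, 16.2 and 19.6 in controls. The groups overlapped, with a log2 fold change of -0.21 (95% interval -0.80 to 0.37; edgeR adjusted p = 0.804), and -0.23 with controls 2 and 3 as 1 sample. The loop labelled rn/nxf4 links 3R:7303601-7305200 to 3R:7345201-7346800, 41.6 kb apart, and held 9.48, 16.2, 19.0 and 23.2 contacts in GAF(deGradFP) and 24.2, 21.1, 9.75 and 14.7 in controls. Here too the groups overlapped, with a log2 fold change of -0.14 (95% interval -0.79 to 0.50; edgeR adjusted p = 0.905).

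**Figure D5:**
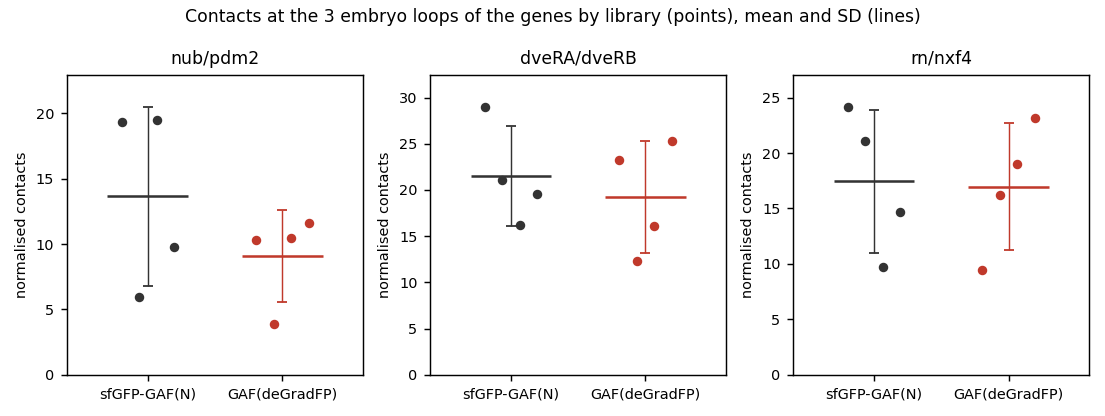
Normalised contacts (y axis, starting at 0) at the 3 embryo loops in 4 sfGFP-GAF(N) control and 4 GAF(deGradFP) libraries (points), with the mean and SD of each group (lines). The groups overlap at each loop, and at nub/pdm2 the depleted libraries lie between 3.86 and 11.6 and the controls between 5.91 and 19.5.

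Of the 7 disc loops, dve and vg had a counterpart in the embryo list, with both anchors overlapping directly. The same held for 60 of all 209 disc loops. The counterpart of the vg loop carries no label and links 2R:12883801-12885400 to 2R:12903401-12905000. It held 43.1, 28.6, 39.0 and 32.7 normalised contacts in GAF(deGradFP) and 41.1, 32.1, 35.7 and 30.2 in controls. The groups overlapped, with means of 35.8 ± 6.45 and 34.8 ± 4.80 (SD, n = 4), a log2 fold change of 0.062 and a 95% interval of -0.39 to 0.51 (edgeR adjusted p = 0.923). The ap, hth and 3 nub and pdm2 loops of discs had no counterpart within 5 kb, which says only that the embryo list does not hold one. The authors' lists were made separately for embryos and discs, with anchors of different width, so contacts were not compared between them.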

How the data were processed

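RNA-seq was made from wing discs, and contact maps from wing discs and embryos fixed with formaldehyde, DSG and EGS, per the labels' protocols. Tools named for RNA in the submitters' processing notes are featureCounts and DESeq2; for contacts they are BWA, bedtools and DESeq2. Neither the strand setting, the contact assay's name nor the genome build is given in the sources used here. The authors deposited raw counts of reads per gene and of contacts per loop, and 6 empty embryo cells were read as 0. Further tables deposited by the authors hold their comparisons: per the file headers, log2 fold changes and standard errors, p-values before and after adjustment, and mean and test statistic columns treated as scores. The RNA comparison carries no label. A DESeq2 refit of delta-POZ against Halo-Trl matched 99.2% of 14598 values to within 0.01. Disc columns headed wt were read as Halo-Trl, and embryo columns headed knock-out or GFP-GAF as GAF(deGradFP) or control.

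Tests were run on the counts with edgeR 4.0.16 under R 4.3.3 (quasi-likelihood F test, TMM, genotype as the one term, all groups of an assay in 1 fit), with the filterByExpr filter for genes, a minimum of 10 contacts summed over libraries for loops, Benjamini-Hochberg adjustment and a threshold of 0.05. Standard errors equal the absolute log2 fold change over the root of F, and 95% intervals use the t distribution. CPM and normalised contacts use effective library sizes, so a shift common to all genes or loops is removed. CPM are not per length, so levels were not compared between genes. Means carry the SD over libraries. Contacts per library limit the precision at loops, and intervals cover only the libraries of this design. At disc loops edgeR drew the spread mostly from all loops together, so an interval reflects a loop's own libraries little. In delta-POZ the authors' deposited standard errors were larger, 0.385 for nub-p1/pdm2 and 0.411 for hth against 0.233 and 0.231 in edgeR. Replicates are biological per the labels' protocols for discs, and for embryos nothing says that libraries came from separate collections.

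The 10 genes, the loops and the other lists (5 lists of genes, 7 of markers) were chosen with earlier results of these data known. The naming rule took every one of the 10 genes and their loops, up to 4 called genes per other list and comparison or up to 2 with the smallest p, the 2 genes most correlated with each of the 4 genes of highest CPM, and Trl. Embryo and disc loops were matched where both anchors overlapped within 5 kb. Gene names and overlaps came from RefSeq (assembly Release 6 plus ISO1 MT). Same-numbered libraries did not deviate together in RNA or embryos (r from -0.14 to 0.20), so replicate numbers were not used as pairs. In discs r was -0.26 to -0.057 for the same number and 0.057 to 0.26 for crossed numbers. With 2 disc libraries per genotype these mirror each other, so they cannot show whether the numbers pair. The tests were checked on simulated counts. Alternatives were DESeq2 1.42.0 and other normalizations, filters and fits, a replicate block, each replicate left out, and, chosen after seeing the data, 3 libraries left out together, a crossed block and controls 2 and 3 summed. CUT&Tag was not analysed here.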

Additional observations from a re-analysis of the deposited data

Results flagged for a closer look

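At the embryo nub/pdm2 loop, 1 library stood apart from its group. GAF(deGradFP) 2 held 3.86 normalised contacts, from 5 raw contacts, while the other 3 depleted libraries held 10.3, 10.5 and 11.6. The gap to the nearest library divided by the range of the group was 0.837, above Dixon's 95% critical value for 4 libraries. Of 6 groups examined this way it was the one past that value, and chance flags about 1 in 20 groups. Without that library the log2 fold change against controls remained uncalled.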

How the results depend on the processing

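No gene of the 10 and no loop of theirs was called in any fit other than sd in delta-POZ against Halo-Trl by DESeq2, which called 1 of the 10. For all genes, DESeq2 called 1719 (delta-POZ against Halo-Trl), 246 (delta-Q against Halo-Trl) and 1071 (delta-Q against delta-POZ), beside 1050, 68 and 477 in edgeR. It called 5 disc loops in delta-Q against delta-POZ (9 in edgeR) and 3 embryo loops (5 in edgeR). With each replicate left out in turn the gene counts ran from 411 to 827, from 21 to 57 and from 237 to 364, and embryo loops from 1 to 16, the highest without GAF(deGradFP) 4. A fit of the 2 deletion lines alone called 263 genes. Without delta-POZ 2, delta-Q 3 and Halo-Trl 1 the delta-Q comparisons called 107 genes against Halo-Trl and 312 against delta-POZ. With a replicate block, delta-Q against Halo-Trl called 45 genes and the embryo test 3 loops. The block changed no call of the 10 genes or their loops. In RNA and embryos same-numbered libraries did not deviate together, and in discs this could not be told. Neither result shows whether same-numbered libraries were prepared together. With numbers crossed in discs, 10 loops were called in delta-POZ against Halo-Trl. The causes were not tested.

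Directions turned where the log2 fold change was small, and none of these values was called. For zfh2 in delta-POZ against Halo-Trl it was 0.015 with DESeq2 size factors and with DESeq2, 0.0069 with upper quartile scaling, 0.0052 without the filter, 0.0084 without mitochondrial genes, 0.0022 with the replicate block and 0.00074 without the 3 libraries. For nub in delta-Q against delta-POZ the same settings gave -0.023 (size factors), -0.022 (DESeq2), -0.027 (upper quartile), -0.012 (no filter), -0.011 (no mitochondrial genes) and -0.068 (without the 3 libraries). Without those libraries the values were -0.034 for vg and -0.061 for rn in delta-Q against Halo-Trl, and -0.028 for sd, -0.11 for ap and -0.13 for Dll in delta-Q against delta-POZ. Upper quartile scaling gave -0.0062 for rn in delta-Q against Halo-Trl. With total contacts as library size the ap loop was at -0.0011 (delta-POZ against Halo-Trl), the hth loop at -0.011 (delta-Q against Halo-Trl) and the vg loop at -0.012 (delta-Q against delta-POZ, -0.0035 with the replicate block).

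With each replicate left out, RNA values in delta-POZ against Halo-Trl ran from -0.16 to 0.040 (vg), -0.16 to 0.027 (ap), -0.020 to 0.080 (nub), -0.093 to 0.083 (zfh2) and -0.018 to 0.13 (hth). In delta-Q against Halo-Trl they ran from -0.13 to 0.049 (ap), -0.029 to 0.071 (nub), -0.095 to 0.12 (rn), -0.095 to 0.061 (zfh2), -0.19 to 0.026 (hth) and -0.16 to 0.063 (Dll). In delta-Q against delta-POZ they ran from -0.084 to 0.12 (ap), -0.070 to 0.051 (nub), -0.11 to 0.072 (zfh2) and -0.045 to 0.18 (Dll). For loops the ranges were -0.051 to 0.35 (nub), -0.13 to 0.083 (dve), -0.14 to 0.16 (ap) and -0.34 to 0.11 (hth) in delta-POZ against Halo-Trl. They were -0.21 to 0.37 (nub), -0.0098 to 0.17 (nub-p1/pdm2), -0.054 to 0.28 (nub-p2/pdm2), -0.21 to 0.087 (ap) and -0.18 to 0.26 (hth) in delta-Q against Halo-Trl. In delta-Q against delta-POZ they were -0.38 to 0.20 (nub), -0.15 to 0.064 (dve), -0.15 to 0.0024 (ap) and -0.21 to 0.18 (vg). In embryos they were -0.32 to 0.051 (rn/nxf4) and -0.052 to 0.16 (the counterpart of the disc vg loop).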
